A study of Homo sapiens with 2 samples.

Results

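The ZNF genes of chromosome 19 encode zinc finger proteins and form large tandem clusters, and MYBL2 peaks at their promoters and in their last exons are described here. Members were the protein-coding genes on chromosome 19 whose symbol is ZNF followed by digits and an optional letter, taken from GENCODE release 44 lifted to GRCh37. There were 246 such genes among 20098 protein-coding genes. Their symbols and positions chose them, and no peak value entered the choice.

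The study asked where MYBL2, a MYB family transcription factor, sits on chromatin in A673 cells, an established Ewing sarcoma line that carries the EWSR1-FLI1 fusion. It used untreated wild-type A673 cells for both groups, which were 1 MYBL2 chromatin immunoprecipitation library (ChIP-seq) and 1 input library of sheared DNA taken without antibody. The sample labels name an anti-MYBL2 antibody and the study's methods an antibody against the phosphorylated, activated protein. With 1 library a group no value below has a replicate error, and no test between groups of genes was made, since genes of 1 library are not replicates.

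Most ZNF genes of chromosome 19 encode a KRAB domain followed by a row of C2H2 zinc fingers. The fingers read DNA, often inside transposable elements, and the KRAB domain recruits TRIM28, which brings the histone methyltransferase SETDB1, HP1 proteins and the NuRD deacetylase complex. The genes arose by tandem duplication and lie in clusters, and their finger-coding last exons are known for carrying the silencing mark H3K9me3. MYBL2 works in dividing cells, in part with the MuvB complex, whose LIN54 subunit reads the CHR element.

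The deposited list held 66954 peaks, of which 2968 lay on chromosome 19. A peak was assigned to a promoter where at least 1 of its bases lay within 1000 bp of any transcription start site (TSS) of the gene. Its strength is the authors' fold enrichment, a linear ratio. It sets the fragments piled up at the summit against the caller's background from the scaled input, with 1 added to both. Pileups were recovered from the deposited values. The best promoter peaks of members had a median pileup of 37 fragments (range 14 to 158). Intervals are 95% exact Poisson intervals for peaks and 95% exact (Clopper-Pearson) intervals for shares, and both cover counting error only.

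Of the 246 members, 167 had a promoter peak (67.9%, interval 61.7 to 73.7%). The background was 59.4% of all protein-coding genes (11941 of 20098), and the other protein-coding genes of chromosome 19 gave 59.4% as well (733 of 1234). ZNF genes on other chromosomes gave 80.9% (212 of 262, interval 75.6 to 85.5%). The members thus stood 8.49 percentage points above their chromosome (Newcombe interval 1.84 to 14.7) and below the ZNF genes elsewhere. These shares were not matched for CpG content, whose part in the difference was not tested. Shares by CpG range are given below. With a fold enrichment of at least 5 the count was 145 members (58.9%), against a background of 49.6%.

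The best promoter peaks of members were of ordinary strength. Their median fold enrichment was 7.99 (quartiles 6.07 and 10.6, range 2.79 to 31.0), beside 8.67 for all protein-coding genes with a promoter peak, 8.99 for the rest of chromosome 19 and 9.33 for ZNF genes elsewhere. They were narrow and close to the start: the median width was 571 bp beside 865 bp for all genes, and 130 of 167 summits (77.8%) lay within 100 bp of a TSS beside 58.6% for all genes. A single promoter peak was found at 128 members, and none had more than 4. For 46 members (27.5%) the best peak was also at the promoter of another protein-coding gene, beside 30.7% of all protein-coding genes with a promoter peak. For 18 members such a gene was another member. The 167 members had 159 distinct best peaks.

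The members fell into 10 clusters of at least 5 genes, where a new cluster began at a gap of over 500 kb, and 14 members lay outside them. Each cluster is called here by its first and last member. Promoter shares differed widely between clusters. They ran from 8 of 37 members in ZNF101 to ZNF254 (21.6%, interval 9.83 to 38.2%) to 5 of 5 in ZNF302 to ZNF792 (interval 47.8 to 100%). Among the large clusters ZNF565 to ZNF573 stood highest with 24 of 26 (92.3%, interval 74.9 to 99.1%), followed by ZNF264 to ZNF446 with 38 of 43 (88.4%, interval 74.9 to 96.1%).

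Between these lay ZNF414 to ZNF846 with 11 of 13 members, ZNF575 to ZNF180 with 19 of 23, ZNF628 to ZNF835 with 13 of 16 and ZNF554 to ZNF77 with 4 of 5. Lower shares were found in ZNF653 to ZNF791 (13 of 25, 52.0%, interval 31.3 to 72.2%) and in ZNF175 to ZNF331 (20 of 39, 51.3%, interval 34.8 to 67.6%). The intervals of most neighbours in this order overlap. That of ZNF101 to ZNF254 ends below the 59.4% background, and those of ZNF565 to ZNF573, ZNF575 to ZNF180 and ZNF264 to ZNF446 begin above it. Without ZNF101 to ZNF254, 159 of 209 members had a promoter peak (76.1%, interval 69.7 to 81.7%).

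**Figure D1:**
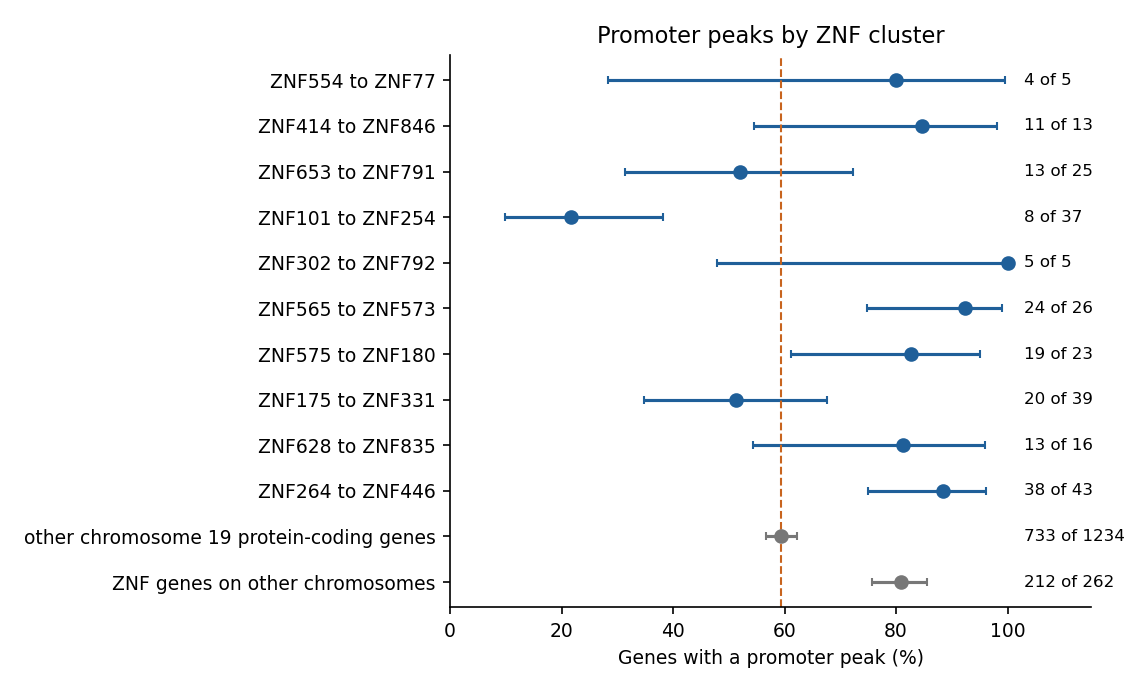
Share of genes with a MYBL2 promoter peak (%, horizontal axis) for each ZNF cluster (blue) and for 2 comparison groups (grey), with 95% exact binomial intervals as bars and the counts at the right. The dashed line is the share of all protein-coding genes, 59.4%. ZNF101 to ZNF254 is lowest with 8 of 37, and its interval lies left of the line.

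Strength has a value only at members with a called peak, so its spread between clusters cannot be compared with that of the share. The median fold enrichment of best promoter peaks was 10.3 in ZNF565 to ZNF573, 9.21 in ZNF628 to ZNF835 and 8.99 in ZNF414 to ZNF846. It was 6.07 in ZNF653 to ZNF791 and 6.63 in the 8 members with a peak in ZNF101 to ZNF254. Values ran from 3.59 to 22.2 in ZNF565 to ZNF573 and from 2.79 to 18.6 in ZNF175 to ZNF331, but only from 3.38 to 9.66 in ZNF101 to ZNF254. The weakest best peak was 5.55 in ZNF575 to ZNF180 and 5.39 in ZNF302 to ZNF792.

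**Figure D2:**
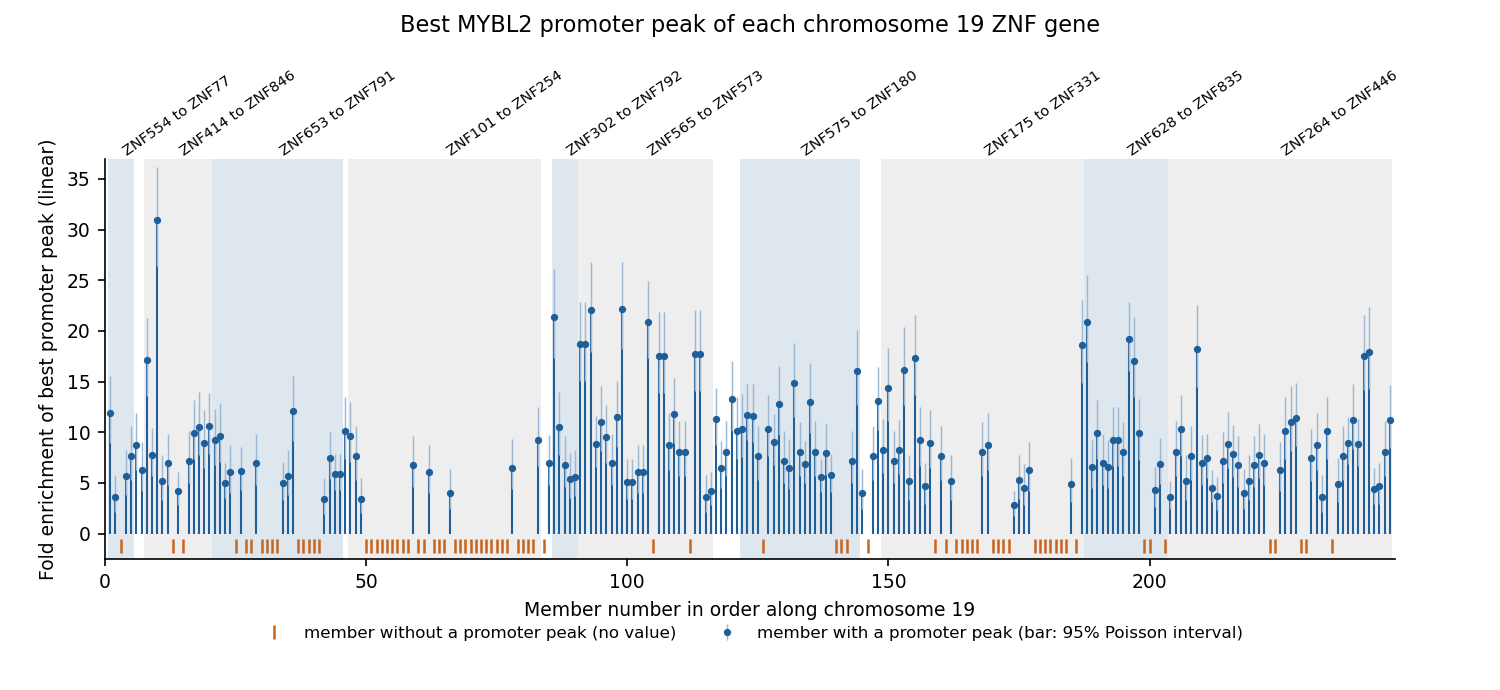
Fold enrichment of the best promoter peak (linear, vertical axis) of the 246 members in order along chromosome 19 (horizontal axis, member number). Blue points are the 167 members with a peak, with 95% Poisson intervals, orange ticks the 79 members without one, and shaded bands the 10 clusters. The ticks crowd together in ZNF101 to ZNF254, and the tallest point is ZNF317 at 31.0.

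The strongest promoter peak of a member was that of ZNF317, a KRAB gene of the ZNF414 to ZNF846 cluster, with a fold enrichment of 31.0 (interval 26.4 to 36.2) and 158 fragments. It exceeded 98.4% of the best promoter peaks of all protein-coding genes. Then came ZNF850 (22.2, interval 18.2 to 26.9), ZNF566 (22.0, interval 17.9 to 26.8) and ZNF420 (20.9, interval 17.4 to 24.9), all in ZNF565 to ZNF573. The other leading members were ZNF302 (21.3), ZNF628 (20.9), ZNF444 (19.3) and ZNF331 (18.6, interval 14.9 to 23.1). ZNF331 is an imprinted KRAB gene, and its peak stood at the end of a cluster where 19 of 39 members had none. ZNF565 and ZNF146, which are transcribed away from each other, shared 1 peak of 18.7 (interval 15.1 to 22.9). ZNF146 encodes a protein made of little else than fingers. The intervals of the members that followed ZNF317 overlap, so their order was not detectable at this depth, while that of ZNF317 overlaps those of ZNF850 and ZNF566 only slightly.

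Each cluster had its own leading member. ZNF317, ZNF850, ZNF302, ZNF628 and ZNF331 led theirs. ZNF547 led ZNF264 to ZNF446 with a fold enrichment of 18.2, ZNF180 led ZNF575 to ZNF180 with 16.1, ZNF136 led ZNF653 to ZNF791 with 12.0 and ZNF554 led ZNF554 to ZNF77 with 11.9. ZNF101 led ZNF101 to ZNF254 with 9.66 (interval 7.03 to 12.98), below the leading members of all the other clusters.

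The strongest peaks shared a short element. Of the 10 members with the largest fold enrichment, 9 had the letters ACANNTCCC within 50 bp of the summit on either strand, where N is any base, and ZNF566 was the exception. These letters are the core of an element known to be bound by the zinc finger protein ZNF143 and by THAP11. They were picked out after these summits had been read, so the 9 of 10 is a description. The stretches of the leading members are shown because the match lies within 50 bp of the summits of these strongest peaks, with the 9 letters in capitals and each read 5′ to 3′ on the strand that holds them. They lie at annotated starts of their genes on GRCh37, at chr19:9250986-9251014 (plus strand, ZNF317), chr19:37263775-37263803 (minus, ZNF850), chr19:35168540-35168568 (minus, ZNF302), chr19:55987849-55987877 (plus, ZNF628), chr19:37569235-37569263 (plus, ZNF420), chr19:56652414-56652442 (minus, ZNF444), chr19:36705608-36705636 (minus, ZNF565 and ZNF146) and chr19:54024135-54024163 (plus, ZNF331).
ZNF317: cttcaaaactACAATTCCCagcatcctct
ZNF850: gctctggactACATTTCCCagaggatccc
ZNF302: acggcgaaccACATTTCCCagaatcctcc
ZNF628: tgggagaactACAACTCCCaggatgccgc
ZNF420: gcgctggactACATTTCCCagaggcacgg
ZNF444: cactggaactACATTTCCCaagatacgcg
ZNF565: gctctggactACAATTCCCagagcccaca
ZNF331: gttatggactACATTTCCCagaggcctct

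Across the members, 31 of 159 best promoter peaks held ACANNTCCC within 50 bp of the summit (19.5%, interval 13.7 to 26.5%). The share was 3.66% over the best promoter peaks of all protein-coding genes (373 of 10178), 5.71% on the rest of chromosome 19 and 6.25% for ZNF genes on other chromosomes. The nearest match lay a median of 14 bp from the summit, and within 20 bp in 20 of the 31 peaks. Without the 9 distinct peaks of the 10 strongest members, in which the letters were first seen, 23 of 150 best peaks held them (15.3%, interval 9.97 to 22.1%).

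Matches were gathered in a few clusters. ZNF565 to ZNF573 had them at 9 of 18 best peaks and ZNF575 to ZNF180 at 8 of 19, whereas ZNF653 to ZNF791 had 0 of 12, ZNF175 to ZNF331 had 1 of 20, at ZNF331, and ZNF264 to ZNF446 had 4 of 38. Letters alone did not set members with a peak apart. Within 500 bp either side of the canonical TSS, ACANNTCCC stood in 37.1% of members with a promoter peak (62 of 167) and in 27.8% of those without (22 of 79), beside 16.8% of all protein-coding genes.

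The ETS core CCGGAAGT, which ETS family factors bind, was also frequent. It was found at 21 of 159 best member peaks (13.2%, interval 8.37 to 19.5%), beside 3.48% for all protein-coding genes, 4.57% on the rest of chromosome 19 and 8.17% for ZNF genes elsewhere. Of the 21, 13 were in ZNF264 to ZNF446, at 13 of its 38 best peaks, and 0 were in ZNF101 to ZNF254. Only 3 summits held both ACANNTCCC and the ETS core, and 49 of 159 held either. Within 500 bp of the canonical TSS the ETS core was in 48 of 167 members with a peak (28.7%) and 6 of 79 without (7.59%). Over all protein-coding genes, 91.3% of those with the core in that window had a promoter peak and 56.7% of those without it. Among members these shares were 88.9% (48 of 54) and 62.0% (119 of 192). The 192 included all 37 members of ZNF101 to ZNF254, none of which had the core in that window, and without that cluster the second share was 71.6% (111 of 155). The core without its last letter reads CTTCCGG on the other strand, and this shorter form went differently. In that window it stood in 29 of these 37 members (78.4%), 48.8% of the other members and 22.3% of all protein-coding genes. It stood in 85 of 167 members with a peak (50.9%) and 46 of 79 without (58.2%).

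The ETS stretches of ZNF547 and ZNF180, the leading members of their clusters, are shown with those of ZNF773 and ZNF805, chosen after their values were seen as examples from ZNF264 to ZNF446, with the core in capitals. They lie at chr19:57874781-57874809 (minus strand, ZNF547), chr19:45004573-45004601 (plus, ZNF180), chr19:58011226-58011254 (minus, ZNF773) and chr19:57751952-57751980 (minus, ZNF805).
ZNF547: gcaagaggacgCCGGAAGTcccgccctcc
ZNF180: gtggccgaacCCGGAAGTgcacttgggct
ZNF773: gaggggagacgCCGGAAGTcccgcccatt
ZNF805: ccatccaaatgCCGGAAGTcccgccccaa

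At the summits the MYB, CHR and E2F shares of members lay close to those of all genes. A MYB site (TAACTG or TAACGG, or these with C as the first letter, on either strand) stood at 12 of 159 best member peaks (7.55%, interval 3.96 to 12.8%), beside 8.43% for all protein-coding genes. The CHR element (TTTGAA or TTCGAA) stood at 6 (3.77%) beside 3.88%, and an E2F site (TTTCGCGC or TTTGGCGC) at 1 beside 0.619%. The CCAAT box, the site of NF-Y, stood at 31 (19.5%, interval 13.7 to 26.5%) beside 9.72%. Its share was 11.4% on the rest of chromosome 19 and 13.5% for ZNF genes elsewhere. The interval of the latter (9.1 to 18.9%) overlaps that of members. Of the 31, 12 were in ZNF264 to ZNF446 and 5 in ZNF101 to ZNF254. Without ZNF101 to ZNF254 the share of members was 17.2% (interval 11.6 to 24.2%). In the window of 500 bp either side of the canonical TSS, the CCAAT box stood in 74.8% of members beside 63.7% of all protein-coding genes. There it stood in 119 of 167 members with a promoter peak (71.3%) and 65 of 79 without (82.3%). All 37 members of ZNF101 to ZNF254 had it, and 147 of the other 209 (70.3%). Within 500 bp of the canonical TSS the MYB site stood in 52.4% of members beside 57.2% of all protein-coding genes. It stood in 98 of 167 members with a promoter peak (58.7%, interval 50.8 to 66.2%) and 31 of 79 without (39.2%, interval 28.4 to 50.9%). In ZNF101 to ZNF254 it stood in 10 of 37 members, 3 of 8 with a peak and 7 of 29 without. Among the other members it stood in 119 of 209 (56.9%). The part of that cluster in the difference was not tested. In that window the CHR element stood in 39.4% (interval 33.3 to 45.8%) beside 37.2%, and 30.1% on the rest of chromosome 19. The E2F site stood in 6.50% (interval 3.76 to 10.3%) beside 3.38% and 2.84%. Unlike the MYB site, the CHR element was less frequent in members with a promoter peak, with overlapping intervals, and the E2F site showed no detectable difference. The CHR element stood in 57 of 167 with one (34.1%) and 40 of 79 without (50.6%). The E2F site stood in 10 of 167 (interval 2.91 to 10.7%) and 6 of 79 (interval 2.84 to 15.8%). Of these 6, 4 were in ZNF101 to ZNF254, as was 1 of the 10. The E2F comparison thus rests on few genes and gives no direction. A match describes letters in a window and was not tested as a site of binding.

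**Figure D3:**
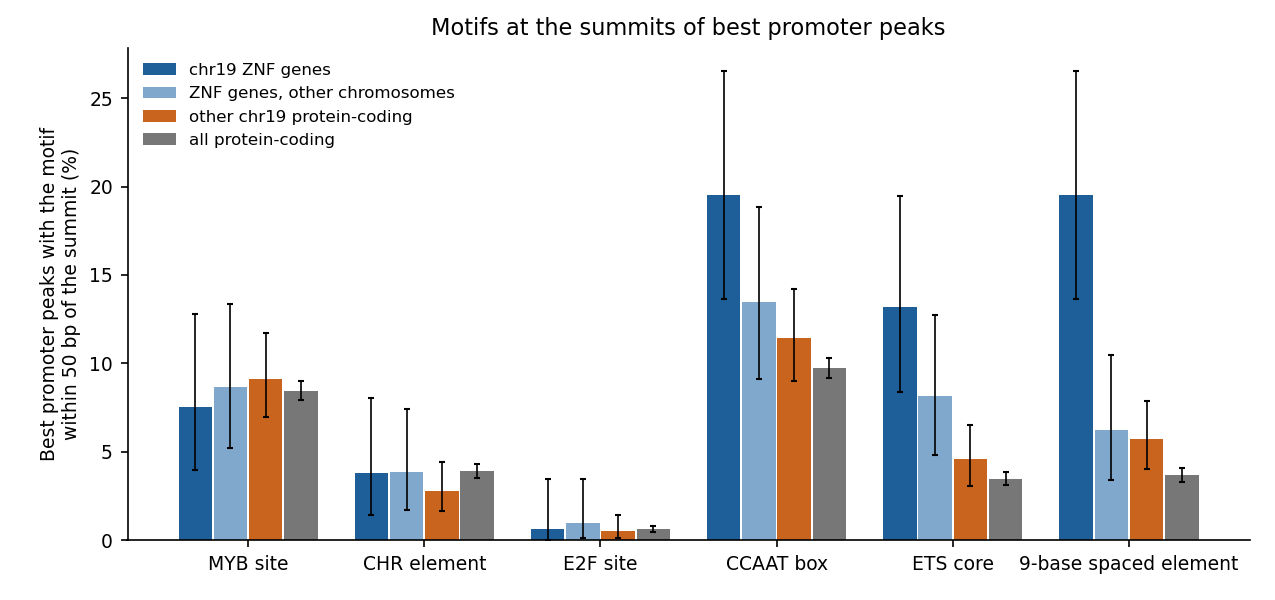
Share of best promoter peaks with each motif within 50 bp of the summit (%, vertical axis) in the chromosome 19 ZNF genes and 3 comparison groups, with 95% exact binomial intervals. The CCAAT box, the ETS core and the 9-base spaced element are highest in the members (19.5%, 13.2% and 19.5%). For the CCAAT box and the ETS core the interval of members overlaps that of ZNF genes on other chromosomes. The MYB, CHR and E2F intervals overlap between groups.

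The ZNF101 to ZNF254 cluster, with 37 members over 4.53 Mb, holds ZNF91 and ZNF93, KRAB genes known to repress SVA and LINE-1 retrotransposons. Neither had a promoter peak, and the nearest peak was 36198 bp from ZNF91 and 79114 bp from ZNF93. The 8 members with a peak, the last 7 of them named after their values were seen, were ZNF101 (9.66), ZNF254 (9.21), ZNF14 (7.64), ZNF430 (6.74), ZNF724 (6.51), ZNF708 (6.07), ZNF100 (4.04) and ZNF506 (3.38). ZNF101, ZNF14 and ZNF506 are the first 3 members of the cluster. Runs of 9 neighbours (ZNF253 to ZNF85), 11 neighbours (ZNF43 to ZNF730) and 4 neighbours (ZNF91 to ZNF726) had no promoter peak.

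Peaks were scarce over the whole span of that cluster. It held 12 peaks in all, or 2.65 per Mb, whereas the other clusters held 21.1 to 54.3 per Mb. Between TSS windows the gene bodies of its members held 1 peak, or 0.570 per Mb of gene body. Of the 3 other protein-coding genes in the span, 1 had a promoter peak. The deposited list shows only that no peak was called there.

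Runs of at least 4 members without a promoter peak also lay in the 2 clusters of intermediate share. In ZNF653 to ZNF791 they were ZNF763 to ZNF844 (4 genes) and ZNF44 to ZNF443 (5 genes). In ZNF175 to ZNF331 they were ZNF880 to ZNF808 (5 genes), ZNF611 to ZNF468 (4 genes) and ZNF415 to ZNF765 (7 genes). No such run was found in the other 7 clusters. Of the 79 members without a promoter peak, 77 had no peak anywhere in the gene. Their nearest peak was a median of 60.01 kb away, over 50 kb away for 43, and farthest for ZNF98, at 654.6 kb.

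The CpG content of the promoters moved with some of these differences, and its part in the result was not tested. The CpG observed/expected ratio, measured 500 bp either side of the canonical TSS, had a median of 0.538 in ZNF101 to ZNF254 and of 0.643 to 0.892 in the other clusters. In ZNF175 to ZNF331, with peaks at 20 of 39 members, it was 0.734. That is above ZNF575 to ZNF180 (0.699, 19 of 23) and ZNF414 to ZNF846 (0.72, 11 of 13). The median ratio was 0.732 in members with a promoter peak and 0.615 in those without. Below 0.4 lay 5034 of all protein-coding genes, 15.2% of them with a promoter peak, but only 7 members, 3 of them with one. Between 0.4 and 0.6, where 39.5% of all protein-coding genes had a promoter peak, members had 13 of 45 (28.9%). The cluster had 6 of 28 of these and the other members 7 of 17. Between 0.6 and 0.8, where the background was 74.4%, members had 116 of 152 (76.3%). The cluster had 2 of 8 of these and the other members 114 of 144 (79.2%).

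Counts by cluster within this CpG range, chosen after seeing the data, rest on few genes. In ZNF175 to ZNF331, 15 of 30 members with a ratio of 0.6 to 0.8 had a promoter peak, and in ZNF653 to ZNF791, 11 of 17. In ZNF565 to ZNF573 it was 18 of 19, and in ZNF264 to ZNF446, 26 of 30. Of the 42 members at 0.8 and above, 35 had a promoter peak (83.3%), as in all protein-coding genes (83.4%).

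**Figure D4:**
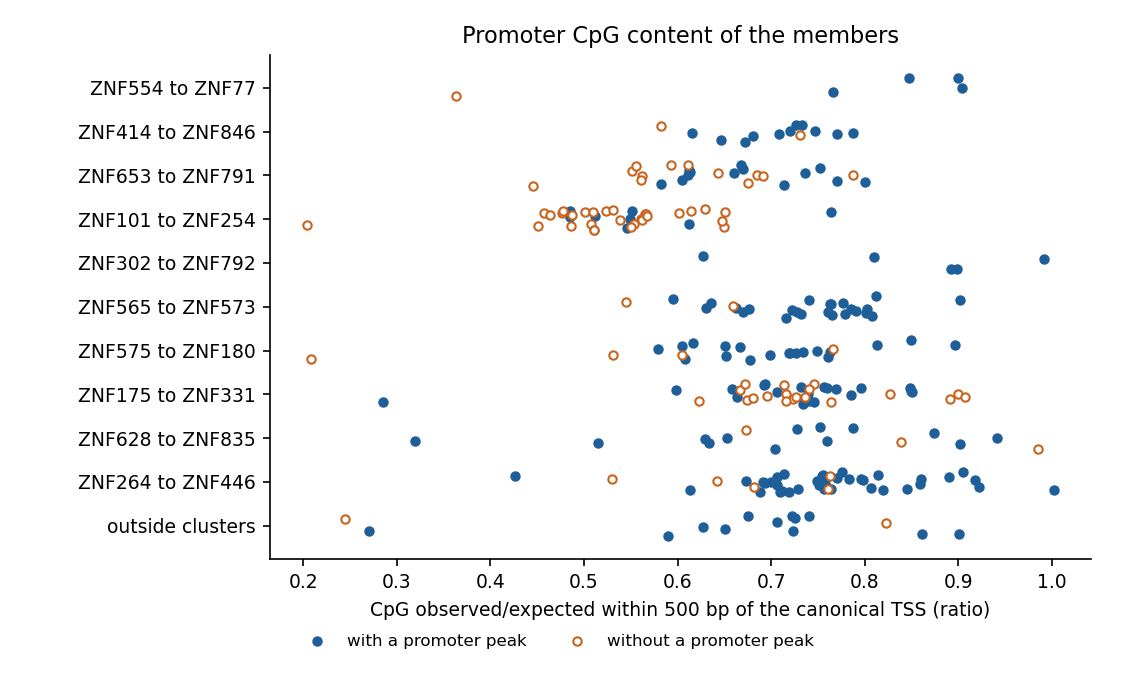
CpG observed/expected ratio within 500 bp of the canonical TSS (horizontal axis) of each member, 1 row a cluster with vertical scatter only to separate points. Filled blue points are members with a promoter peak and open orange points members without. The open points of ZNF101 to ZNF254 lie mostly between 0.4 and 0.7, and those of ZNF175 to ZNF331 lie among the filled ones.

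Young duplicates can lose reads that align to several places. The share of 100-base stretches, the read length, that occur exactly once in GRCh37 was therefore computed for each member. Promoter windows were fully unique in 147 of 167 members with a peak and in 62 of 79 without. The lowest value was 84.3% among members with a peak and 92.0% among those without. In ZNF101 to ZNF254, 32 of 37 windows were fully unique and the lowest value was 98.0%, and 177 of the other 209 members had fully unique windows. Exact matches do not capture near-identical copies, and what a filter on mapping quality removed there was not tested.

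Many promoters of ZNF101 to ZNF254 shared a stretch of sequence. In 23 of 37 members a CCAATCA box was followed within 60 bases by CTTCCGG, between 150 bp upstream and 50 bp downstream of the start. That pair was found in 1 of 209 other members and in 1 of 1234 other protein-coding genes of the chromosome. It stood in 5 of the 8 members with a promoter peak and in 18 of the 29 without. Compared without gaps over 54 bases, the other 22 of these stretches, which all hold both boxes by choice, shared 35 to 50 bases with that of ZNF91. Of the 23 stretches, 5 overlapped a deposited peak.

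The stretches of 3 members with a peak over them (ZNF430, ZNF100 and ZNF724) and of 3 without (ZNF91, ZNF492 and ZNF728) are shown for comparison, each on the strand of its gene with both boxes in capitals. Apart from ZNF91 they were chosen after their values were seen. They lie just upstream of the canonical starts, at chr19:21203403-21203456 (plus strand, ZNF430), chr19:21950382-21950435 (minus, ZNF100), chr19:23433198-23433251 (minus, ZNF724), chr19:23578281-23578334 (minus, ZNF91), chr19:22817071-22817124 (plus, ZNF492) and chr19:23185983-23186036 (minus, ZNF728).
ZNF430: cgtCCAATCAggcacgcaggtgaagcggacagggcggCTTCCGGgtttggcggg
ZNF100: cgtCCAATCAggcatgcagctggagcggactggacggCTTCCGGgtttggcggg
ZNF724: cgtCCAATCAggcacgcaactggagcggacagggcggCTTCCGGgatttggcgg
ZNF91: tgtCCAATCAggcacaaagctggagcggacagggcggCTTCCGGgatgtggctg
ZNF492: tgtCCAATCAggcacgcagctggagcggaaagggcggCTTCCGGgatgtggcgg
ZNF728: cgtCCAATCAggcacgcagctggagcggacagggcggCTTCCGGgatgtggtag

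Protein class separated the members little. A KRAB A-box pattern was found in 172 of the 242 members with a usable coding sequence. Of these, 114 had a promoter peak (66.3%, interval 58.7 to 73.3%), beside 52 of 70 without the pattern (74.3%, interval 62.4 to 84.0%). Outside ZNF101 to ZNF254, where 33 members had the pattern, the shares were 76.3% (106 of 139) and 76.5% (52 of 68). The number of fingers had a median of 12 and a range of 1 to 36. Members with up to 8 fingers had a promoter peak in 36 of 45 cases (80.0%), those with 9 to 12 in 54 of 78 (69.2%), those with 13 to 16 in 45 of 74 (60.8%) and those with 17 or more in 31 of 45 (68.9%), with overlapping intervals.

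Members with well-known roles lay on both sides. ZNF274, which binds the 3′ ends of other ZNF genes and recruits SETDB1, had a promoter peak of 7.64 (interval 5.33 to 10.6). ZNF382, a KRAB gene described as a tumor suppressor, had one of 9.51 (interval 6.97 to 12.7), shared with its neighbour ZNF529. ZNF568, whose mouse relative represses a placental Igf2 transcript, shared a peak of 6.07 with ZNF829. ZNF417 and ZNF587, a pair of near-identical genes that act on endogenous retroviruses, differed: ZNF417 had a peak of 7.41 (interval 5.14 to 10.4), and ZNF587 had none, with the nearest 4282 bp away. Their windows around the canonical TSS were 97.1% and 94.5% unique, and the part of shared reads in this difference was not tested.

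In a list of 19 genes of KRAB silencing, chosen by hand, all 19 had a promoter peak (interval 82.4 to 100%), against the 59.4% background. These genes had a median of 15 TSSs and 9953 bp of promoter window each, beside 5 TSSs and 4592 bp for all protein-coding genes. Their median fold enrichment was 10.4. The largest was at CBX3, an HP1 protein, with 30.9 (interval 26.1 to 36.4), and TRIM28, the KRAB corepressor itself, followed with 25.2 (interval 20.7 to 30.3). The HP1 genes CBX5 and CBX1 had 17.7 and 16.6, and the SETDB1 cofactor ATF7IP had 16.4. SETDB1 was lower with 7.30 (interval 5.47 to 9.56). The HUSH complex genes ranged from 14.8 at PPHLN1 through 7.41 at MPHOSPH8 to 4.94 at TASOR, and their partner MORC2 had 6.96. ATRX was lowest with 4.55. CpG content was high in this list, with a median ratio of 0.825 beside 0.724 for all genes. The part of CpG content and of the longer windows in the count was not tested.

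Last exons of members held few peaks. The last exon of the canonical transcript, which in most members encodes the fingers, carried a peak in 12 of 243 members (4.94%, interval 2.58 to 8.47%), since 3 members had no canonical transcript in the lifted annotation. The background was 15.4% of protein-coding genes (3053 of 19819). With −log10 q of at least 5 it was 7 members (2.88%) beside 10.5% of all genes, and with a fold enrichment of at least 5 it was 4 (1.65%) beside 6.48%. The rest of chromosome 19 gave 21.5% (interval 19.2 to 23.9%), and ZNF genes on other chromosomes 17.6% (46 of 261, interval 13.2 to 22.8%). Leaving out peaks at any promoter, 10 of 243 members remained (4.12%), against a background of 10.5%.

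Member last exons had a median length of 3302 bp, beside 1398 bp for all genes. Per Mb of last exon there were 25.6 peaks in members, 92.4 in ZNF genes elsewhere, 114.0 in all protein-coding genes and 228.1 on the rest of chromosome 19. Members thus had 0.224 times the density of all genes (Poisson interval 0.142 to 0.336) and 0.112 times that of their chromosome. On average 98.8% of 100-base stretches in member last exons were unique. The rest of chromosome 19 gave 97.6% and ZNF genes elsewhere 96.9%. This share was not computed for all protein-coding genes.

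**Figure D5:**
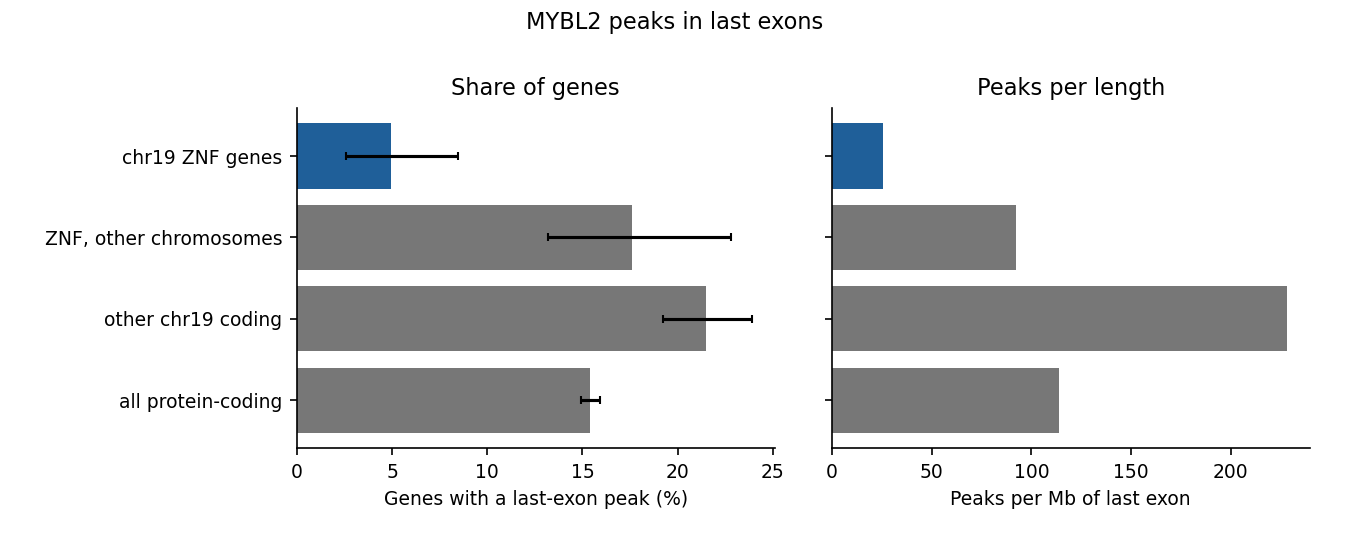
Left, share of genes with a MYBL2 peak in the last exon of the canonical transcript (%, with 95% exact binomial intervals). Right, peaks per Mb of last exon. The chromosome 19 ZNF genes (blue) are lowest in both, at 4.94% and 25.6 per Mb.

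The 16 last-exon peaks outside promoters were weak, with a median fold enrichment of 3.94 beside 3.69 for such peaks of all genes. They lay in 10 members. ZNF180 had the strongest, with 6.07 (interval 4.04 to 8.78, 26 fragments) over its coding part, and a second of 3.82. ZNF146 had 3, with 5.39 (interval 3.50 to 7.98), 4.62 and 4.41. The best values in the others were 4.77 in ZNF121, 4.72 in ZNF814, 4.49 in ZNF766, 3.80 in ZNF497, 3.59 in ZNF627, 3.52 in ZNF557, 3.18 in ZNF544 and 2.66 in ZNF791. The intervals of all these overlap.

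Of the 10 members, 9 also had a promoter peak, and ZNF814 was the exception. In ZNF180 and ZNF146 the promoter peak was the stronger by a wide margin, 16.1 against 6.07 and 18.7 against 5.39. ZNF101 to ZNF254 had 0 last-exon peaks in 35 members (interval 0 to 10.0%), and ZNF175 to ZNF331 had 1 in 39. The same scarcity held for the remaining gene bodies. Outside promoters the genes of members held 8.81 peaks per Mb (69 peaks), beside 26.7 for all protein-coding genes, 31.5 for ZNF genes elsewhere and 41.7 for the rest of chromosome 19.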

How the data were processed

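MYBL2 ChIP and input libraries of A673 cells were sequenced with single-end reads of 100 bases. Per the labels and methods, the authors aligned reads to hg19 with Bowtie2 (2.1.10 in the submitters' processing notes) and called narrow peaks with MACS2 (2.0.10) against the input. The deposited list gives a fold enrichment (a linear ratio), −log10 p and q, a score derived from q, and the summit offset. What its cleaning step removed is not given in the sources used here. Read totals were not used. The deposited −log10 p and ratio together gave each pileup, with a largest misfit of 1.88e-05.

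Peaks were overlapped with GENCODE 44 genes on GRCh37, which has hg19 coordinates, in Python 3.11.15 (numpy 2.4.6, scipy 1.17.1, pandas 2.3.3). The scripts were tested on simulated data. KRAB pattern and fingers came from translated canonical coding sequences, since no protein table was used. Named members were the 10 strongest at promoters, all 10 with last-exon peaks outside promoters, the leader of each cluster and 8 with known roles. Symbol and position alone set the members, but this rule, the lists and the comparisons were chosen with earlier results of these data known. ACANNTCCC, CCAATCA and CTTCCGG, and the comparisons by cluster within a CpG range, were chosen after seeing the data. Alternatives were stricter peaks, other promoter windows, other cluster gaps and other last-exon rules.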

Additional observations from a re-analysis of the deposited data

How the results depend on the processing

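Of 32 recomputed values, 30 stayed within the counting interval of the value reported and 0 reversed. With peaks of at least 5-fold enrichment only, 58.9% of members had a promoter peak and 1.65% a last-exon peak. Under the alternatives the difference in promoter share between members and the rest of chromosome 19 ran from 7.57 to 13.3 percentage points, the latter with canonical starts only. ZNF101 to ZNF254 stayed the lowest cluster, or, with clusters parted at 250 kb, its larger portion did, and the highest-to-lowest difference ran from 78.4 to 83.8 points. That maximum rests on a cluster of 5 members. No paired analysis was possible because there were no replicates, with 1 library on either side. Pileups of 14 to 158 fragments limit what can be ranked, and members without a peak may hold signal below the caller's threshold.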

Other observations

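Other zinc finger genes of chromosome 19, with symbols starting ZFP, ZSCAN, ZIM, ZIK or ZBTB or named PEG3, had a promoter peak in 9 of 19 cases (47.4%, 95% exact interval 24.4 to 71.1%), beside 59.4% of all protein-coding genes. The largest fold enrichments were 13.2 at ZBTB45, 11.7 at ZFP82, 11.7 at ZSCAN22 and 10.1 at ZBTB7A, the last known for repressing fetal globin. None was listed at the promoters of PEG3 and ZIM2, an imprinted pair, or of ZIM3, ZSCAN4, ZSCAN1 and ZFP28. Of the ZSCAN symbols, 2 of 7 had one. Last-exon peaks were found in 4 of the 19 genes, beside 15.4% of all protein-coding genes.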
